A study of Homo sapiens with 6 samples.

Results

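The dual-specificity phosphatases DUSP1 and DUSP4, the Krüppel-like factors KLF2 and KLF4, the transcription factor MYC and the kinase MAP2K6 are 6 of the 1099 genes in the authors' deposited table, and all 6 were found there by gene symbol. They are growth-factor response genes, MAP kinase phosphatases and an activator of the MAP kinase p38. They were chosen by symbol with their fold changes and p-values in this same comparison known. The table they come from is itself selected on p-value: it keeps 9.74% of 11289 genes tested, with none above 0.00535. Differences between extract and vehicle are therefore given for these 6 genes as a description, with no test.

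Poly(A) RNA was sequenced from 6 libraries of a wild-type cell line, 3 per group, kept for 24 h with F/B extract or with DMSO, its vehicle. The title of the series speaks of an extract from Flos Sophorae Immaturus and broccoli seed; the dose is not given in the sources used here. All cells grew in medium with fetal bovine serum, itself a source of growth factors. The labels name the line A549, from a lung adenocarcinoma, while the library names begin with AGS, which is also the name of a gastric adenocarcinoma line. MTAP, a gene deleted in A549, stood at 48.9 to 60.5 TPM (transcript copies scaled to a fixed total per library) over the 6 libraries. Of 12 lung alveolar markers 1 was in the table, and of 20 gastrointestinal markers 5 were, among them VIL1 (villin) at 142 to 214 TPM. MTAP goes against the label A549. A marker outside the table may still be expressed, since the table keeps only small p-values, and which line was used was not settled here. Of 12 leukocyte markers 0 were in the table, and of 11 fibroblast and endothelial markers 1 was. Nothing in the labels says that replicates were separate cultures, so every p-value here reflects how far these libraries scatter, and that scatter may be technical. Estimated counts over the listed genes summed to 3084338 to 4640117 per library, which is part of each library and not its depth.

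Immediate early genes are switched on within minutes when a growth factor or stress signal reaches the nucleus through the MAP kinases, with no new protein needed. Their messenger RNAs are mostly short-lived. DUSP1 and DUSP4 are made in this response and remove the activating phosphates from MAP kinases in the nucleus, which closes a feedback loop. MYC drives ribosome building and cell growth, KLF4 favours differentiation and exit from the cell cycle in gut and skin epithelium, and KLF2 is best known from endothelium and resting T cells. MAP2K6, also called MKK6, phosphorylates and activates p38.

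The RefSeq promoter table used here (build GRCh38.p14) matched DUSP1, KLF4, KLF2 and MAP2K6, and the 250 bases before their annotated starts are printed here because DUSP1 and KLF4 were lower with extract while KLF2 and MAP2K6 were higher. Each runs 5′ to 3′ on the strand of its gene: DUSP1 is chr5:172771196-172771445 on the minus strand, KLF4 is chr9:107489770-107490019 on the minus strand, KLF2 is chr19:16324576-16324825 on the plus strand and MAP2K6, at the upstream one of its 2 starts, is chr17:69414447-69414696 on the plus strand. RefSeq starts need not be the outermost GENCODE starts, and those of KLF4 and KLF2 lie inside the GENCODE spans of these genes. The KLF2 window thus runs past the GENCODE start, at 16324817. Capitals mark matches to the cAMP response element (CRE, TGACGTCA), its core TGACG, the E-box CACGTG, the TATA box TATAAA, the AP-1 site TGANTCA, the CArG box of serum response factor and the MEF2 site, on both strands.
DUSP1: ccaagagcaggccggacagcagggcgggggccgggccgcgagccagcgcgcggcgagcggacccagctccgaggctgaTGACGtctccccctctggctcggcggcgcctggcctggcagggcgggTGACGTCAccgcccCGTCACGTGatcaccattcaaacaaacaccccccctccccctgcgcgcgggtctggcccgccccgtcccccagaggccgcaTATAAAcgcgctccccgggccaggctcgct
KLF4: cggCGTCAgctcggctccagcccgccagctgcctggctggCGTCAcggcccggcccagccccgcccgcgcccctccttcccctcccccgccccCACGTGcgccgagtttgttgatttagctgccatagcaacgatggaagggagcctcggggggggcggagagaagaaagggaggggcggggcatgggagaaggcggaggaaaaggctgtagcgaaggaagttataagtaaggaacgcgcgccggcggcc
KLF2: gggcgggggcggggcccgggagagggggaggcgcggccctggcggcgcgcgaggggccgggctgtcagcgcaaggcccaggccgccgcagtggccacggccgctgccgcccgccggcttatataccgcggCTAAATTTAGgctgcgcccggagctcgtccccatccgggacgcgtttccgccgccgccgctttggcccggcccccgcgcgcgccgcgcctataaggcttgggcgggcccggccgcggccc
MAP2K6: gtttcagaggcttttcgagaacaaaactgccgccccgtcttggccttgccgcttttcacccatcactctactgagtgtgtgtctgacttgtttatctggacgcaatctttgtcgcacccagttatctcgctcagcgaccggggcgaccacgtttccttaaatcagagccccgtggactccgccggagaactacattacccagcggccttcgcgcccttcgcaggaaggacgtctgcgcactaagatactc

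The DUSP1 window held a full CRE at -125 to -118 from the start, cores at -172 to -168 and -111 to -107, an E-box at -108 to -103 that overlaps the last of these by 2 bases, and a TATA box at -30 to -25. The full CRE contains a core on each strand. KLF4 held cores at -247 to -243 and -210 to -206 and an E-box at -157 to -152. KLF2 held a MEF2 site at -120 to -111, the kind of element through which the kinase ERK5 is known to act on KLF2. The MAP2K6 window printed held none of these elements, while that of its other start matched the TATA box at -200 to -195 and -164 to -159, both on the strand opposite to the gene. Among 35116 promoter windows of the same length, 1.65% held a full CRE, 21.2% a core, 6.34% an E-box, 10.7% this TATA box, 6.57% an AP-1 site, 1.16% a CArG box and 2.80% a MEF2 site. In the same order, the shares among 1256 windows of listed genes were 2.15%, 28.1%, 9.32%, 7.25%, 5.81%, 2.71% and 2.63%. GC boxes (GGGCGG), which Sp and Krüppel-like factors can bind, were common: 42.6% of all windows and 57.9% of those of listed genes held one. There were 4 in DUSP1, 4 in KLF4, 4 in KLF2 and 1 in MAP2K6. The related CACCC box, in 54.7% of all windows and 57.6% of those of listed genes, matched 2 times in DUSP1 and 2 times in MAP2K6. In DUSP1, 1 CACCC box overlaps a GC box and the CRE. The G and C content was 74.4% in DUSP1, 69.2% in KLF4, 80.0% in KLF2 and 55.6% in MAP2K6, against a median of 58.0% over all windows. A match is a description of the letters and was tied to no measurement of binding.

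**Figure D1:**
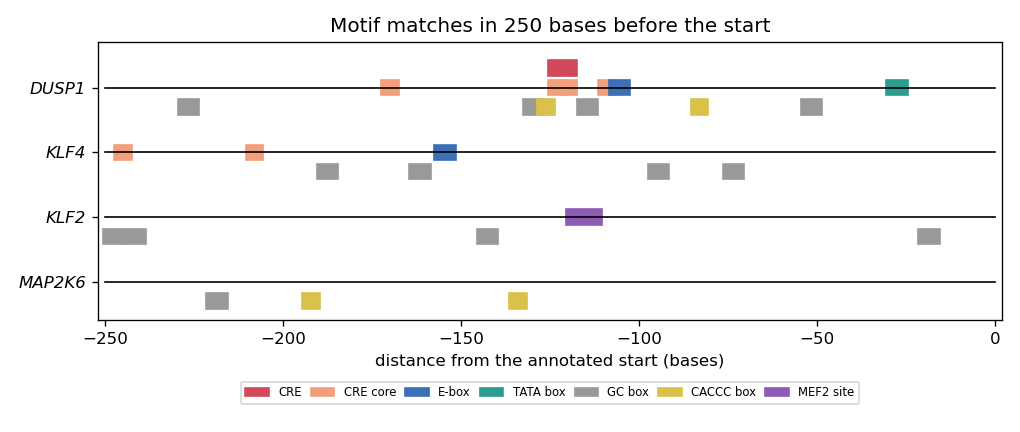
Matches to 7 motifs (coloured boxes) in the 250 bases before the annotated start of DUSP1, KLF4, KLF2 and MAP2K6, drawn by distance from the start in bases. DUSP1 and KLF4 hold CRE cores and an E-box, and KLF2 holds a MEF2 site at -120 to -111.

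Of the 6 genes, DUSP1, DUSP4, KLF4 and MYC were lower with extract and KLF2 and MAP2K6 were higher, by 1.28-fold to 1.70-fold. The groups did not overlap for any of the 6, a count from which nothing is read, since the groups did not overlap for 34.6% of listed genes on the higher side and for 63.9% on the lower side. Values below are normalised counts: the authors' estimated counts, rounded and divided by a size factor per library, with means ± SD over 3 libraries and log2 fold changes of extract over vehicle with standard errors (SE) from edgeR. Lower counts in bulk RNA cannot tell fewer cells that express a gene from less RNA per cell.

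DUSP1 (ENSG00000120129, GRCh38 chromosome 5, 172768090 to 172771195, minus strand) encodes a nuclear phosphatase that acts on p38, JNK and ERK. It was at 458, 527 and 521 normalised counts in vehicle replicates 1 to 3 and at 314, 337 and 312 in extract replicates 1 to 3. Every extract library was below every vehicle library, and the 3 extract libraries lay close together. The means were 502 ± 38.4 and 321 ± 13.5 (SD, n = 3 per group), and the log2 fold change was -0.65 (SE 0.08), or 1.57-fold lower. An antisense gene, AC022217.3, covers the whole of DUSP1 in GENCODE release 29, and without a strand stated for the counting its reads could not be told apart from those of DUSP1.

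DUSP4 (ENSG00000120875, chromosome 8, 29333064 to 29350668, minus strand) is the related nuclear phosphatase of ERK and JNK. It was the gene with the most counts of the 6, at 9151, 9465 and 10252 in the vehicle libraries and 7927, 7305 and 6994 in the extract libraries. The groups came nearest to each other at vehicle replicate 1 and extract replicate 1, and did not overlap. The means were 9623 ± 567 and 7408 ± 475 (SD, n = 3 per group), and the log2 fold change was -0.38 (SE 0.06), or 1.30-fold lower. By TPM, which allows levels to be compared between genes, DUSP4 was 6.37 ± 0.346 times as abundant as DUSP1 with vehicle and 7.62 ± 0.598 times with extract (SD, n = 3 each). The ratio was 6.61, 5.97 and 6.52 in the vehicle libraries and 8.30, 7.15 and 7.41 in the extract libraries, so the ratio was higher in all 3 of the latter.

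KLF4 (ENSG00000136826, chromosome 9, 107484852 to 107490482, minus strand) had the smallest spread among vehicle libraries of the 6. It was at 2625, 2736 and 2768 normalised counts with vehicle and at 2047, 2019 and 1859 with extract. The means were 2710 ± 75.1 and 1975 ± 101 (SD, n = 3 per group), and the log2 fold change was -0.46 (SE 0.05), or 1.37-fold lower. Within the vehicle group its coefficient of variation (CV, the SD over the mean) was 2.77%, against a median of 4.03% over all listed genes.

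KLF2 (ENSG00000127528, chromosome 19, 16324817 to 16327874, plus strand), a factor of the same family, went the other way. It was at 174, 210 and 222 normalised counts with vehicle and at 294, 341 and 275 with extract. Vehicle replicate 1 was the lowest library and extract replicate 2 the highest. The means were 202 ± 25.2 and 303 ± 34.0 (SD, n = 3 per group), and the log2 fold change was 0.58 (SE 0.12), or 1.5-fold higher. The TPM ratio of KLF4 to KLF2 was 14.1, 8.78 and 8.63 in the vehicle libraries and 4.22, 4.93 and 4.39 in the extract libraries. KLF4 thus remained the more abundant of the pair in all 6 libraries, by 10.5 ± 3.13 times with vehicle and 4.52 ± 0.372 times with extract (SD, n = 3 each).

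MYC (ENSG00000136997, chromosome 8, 127735434 to 127741434, plus strand) was at 4615, 5109 and 4999 normalised counts with vehicle and at 4335, 3844 and 3300 with extract. The groups came near each other at vehicle replicate 1 and extract replicate 1, and extract replicate 3 was the lowest library. The means were 4908 ± 259 and 3826 ± 517 (SD, n = 3 per group), and the log2 fold change was -0.36 (SE 0.09), or 1.28-fold lower. Its CV was 5.29% with vehicle and 13.5% with extract, and 93.0% of listed genes had a smaller CV among the extract libraries.

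MAP2K6 (ENSG00000108984, chromosome 17, 69414698 to 69553861, plus strand) had the fewest counts of the 6 and, among extract libraries, the widest relative spread. It was at 141, 118 and 131 normalised counts with vehicle and at 177, 205 and 277 with extract. Extract replicate 3 stood well above the other two, and the CV was 23.4% among extract libraries, larger than in 98.6% of listed genes. The means were 130 ± 11.2 and 220.0 ± 51.5 (SD, n = 3 per group), and the log2 fold change was 0.76 (SE 0.17), or 1.70-fold higher. Without extract replicate 3 the log2 fold change was 0.57, and without extract replicate 1 it was 0.90. MAP2K6 overlaps AC015920.1 on its own strand and AC002546.1 on the other, and reads in the shared stretches cannot be told apart by gene.

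**Figure D2:**
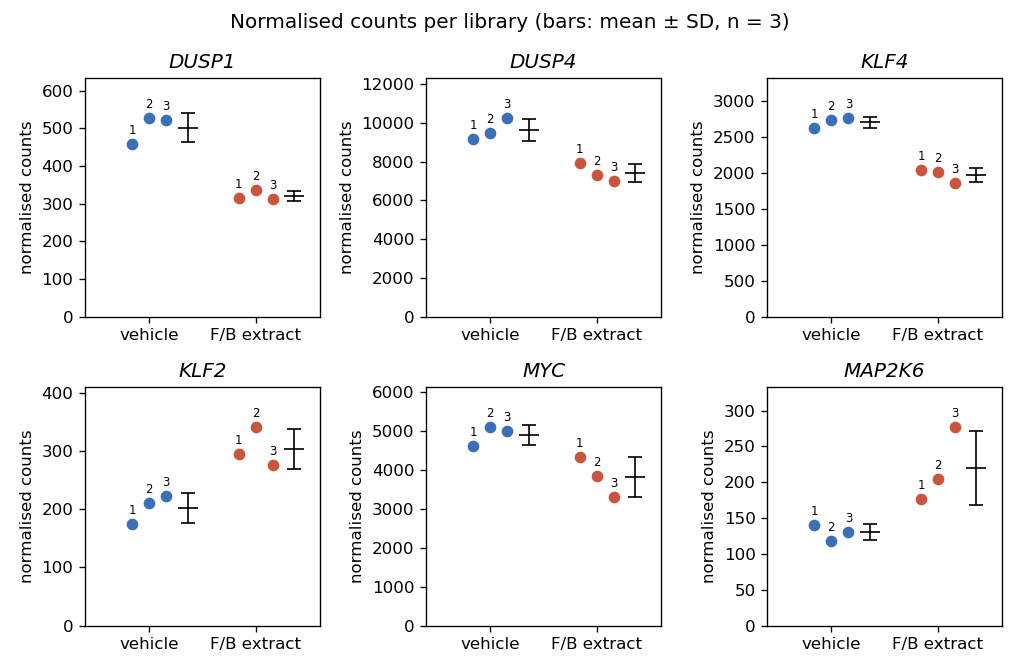
Normalised counts (vertical axes, from 0) of the 6 genes in each library, with replicate numbers above the points and the mean ± SD (n = 3) to their right. DUSP1, DUSP4, KLF4 and MYC are lower in all 3 extract libraries, KLF2 and MAP2K6 higher, and relative to their mean the extract libraries spread most for MAP2K6, from 177 to 277.

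By TPM the order of the 6 with vehicle was MYC (218 ± 12.9), DUSP4 (143 ± 9.03), KLF4 (95.6 ± 1.69), DUSP1 (22.5 ± 1.61), KLF2 (9.61 ± 2.57) and MAP2K6 (5.95 ± 0.698; SD, n = 3 each). With extract it was MYC (181 ± 19.9), DUSP4 (116 ± 2.99), KLF4 (73.3 ± 1.77), KLF2 (16.3 ± 1.13), DUSP1 (15.3 ± 0.784) and MAP2K6 (10.1 ± 2.90). KLF2 and DUSP1 thus changed places in the means. With extract they did not differ beyond their spread, at 16.89, 15 and 17.01 TPM for KLF2 and 14.39, 15.92 and 15.45 for DUSP1. With vehicle the KLF2 libraries were at 6.65, 10.90 and 11.27 TPM and those of DUSP1 at 20.68, 23.38 and 23.55. KLF2 and MAP2K6 came near each other with vehicle, where KLF2 in replicate 1 was at 6.65 TPM and MAP2K6 in replicate 3 at 6.61. The median listed gene was at 53.9 TPM with vehicle, so MYC, DUSP4 and KLF4 were above it and the other three below.

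The TPM values gave KLF2 a larger difference than its counts did. On TPM its log2 fold change was 0.76, or 1.70-fold, against 0.58 on counts, while MAP2K6 was at 0.76 on both. TPM values also carry their own scale between libraries. Counts put on that scale gave 0.66 for KLF2 and 0.85 for MAP2K6. Estimated counts per unit of TPM, which rise with the transcript length by which TPM values were scaled, were taken relative to the median listed gene on the log2 scale. For KLF2 they ran at -0.09, -0.55 and -0.50 in the vehicle libraries and at -0.65, -0.24 and -0.64 in the extract libraries. The groups overlapped, and the difference of the means, -0.13, was larger in size than for 94.1% of listed genes. For DUSP1 the same quantity stayed between -0.35 and -0.32 over the 6 libraries, for DUSP4 between 1.25 and 1.28 and for KLF4 between -0.02 and 0.07. MYC ran from -0.42 to -0.27 and MAP2K6 from -0.49 to -0.25, with a difference of the means of 0.08 for MAP2K6, larger in size than for 83.8% of listed genes. GENCODE release 29 gives KLF2 2 transcripts. The size of the KLF2 difference thus depended on the unit and on the library scale, and the split of its reads between transcripts was not analysed here.

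**Figure D3:**
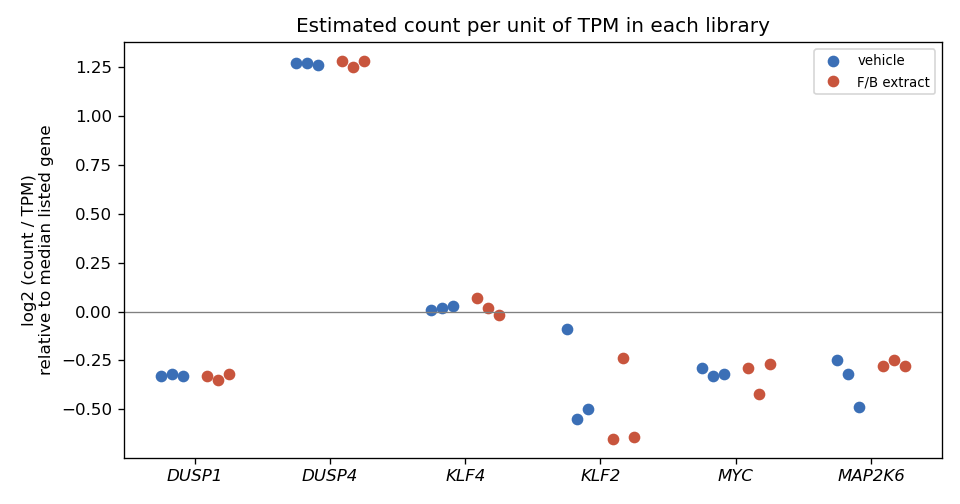
Estimated count per unit of TPM (vertical axis, log2, relative to the median listed gene) for the 6 genes in the 3 vehicle and 3 extract libraries. KLF2 runs from -0.65 to -0.09 with no separation of the groups, MAP2K6 (-0.49 to -0.25) and MYC (-0.42 to -0.27) vary less, and DUSP1, DUSP4 and KLF4 least.

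The scale given to the libraries moved all 6 values alike. On the scale used, which is the one that the authors' fold changes imply, the median log2 fold change of all listed genes was -0.22. The 4 other scales raised it by 0.08 (TPM scale), 0.14 (sums over the listed genes), 0.15 (TMM) and 0.17 (DESeq2 factors, like TMM estimated on the listed genes). DUSP1 then ran from -0.65 to -0.47, DUSP4 from -0.38 to -0.20, KLF4 from -0.46 to -0.28, MYC from -0.36 to -0.19, KLF2 from 0.58 to 0.76 and MAP2K6 from 0.76 to 0.94. None changed sign, and none could, since each stood farther from 0 than the largest of these shifts.

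**Figure D4:**
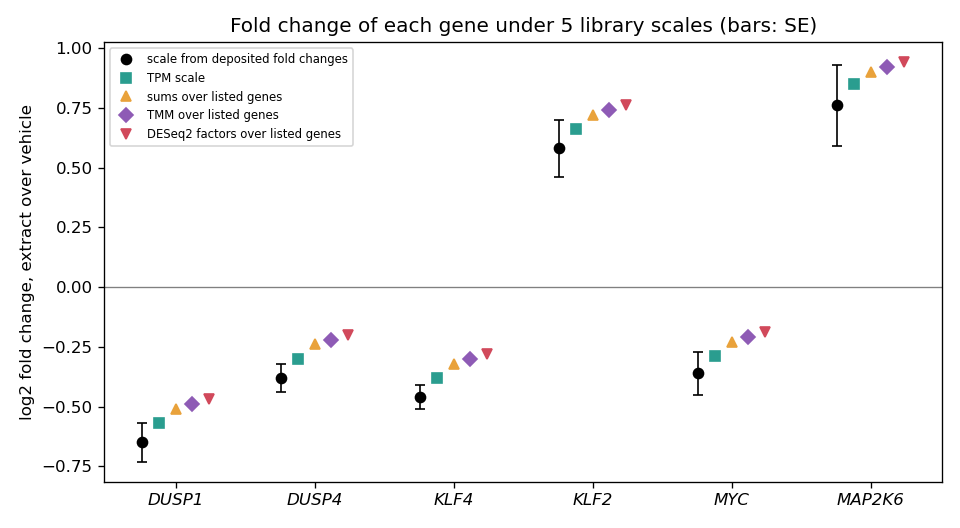
Log2 fold change of extract over vehicle (vertical axis) for the 6 genes under 5 library scales; bars are SE and are drawn for the scale used. Each of the other scales moves every gene upward, and the 4 lower genes stay below 0, with MYC nearest at -0.36 to -0.19.

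Within the table the 6 differences were moderate to large. Among 1099 genes MAP2K6 had rank 6 and KLF2 rank 22 by log2 fold change, counted from the highest. From the lowest, DUSP1 had rank 56, KLF4 rank 103, DUSP4 rank 175 and MYC rank 204. The median absolute log2 fold change of listed genes was 0.29. In the authors' deposited table, where the ratio is vehicle over extract, KLF4 held rank 31 by p-value, DUSP4 rank 63, DUSP1 rank 99, MYC rank 287, MAP2K6 rank 396 and KLF2 rank 421.

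On the scale used, more of the other immediate early genes fell than rose, as among all listed genes, but on the 4 other scales 0 were called lower and 2 higher. Of 41 on a list of 46 that also holds 5 of the 6 genes, 10 were in the table, and of these 5 fell, 1 rose and 4 did not pass edgeR's quasi-likelihood test (adjusted p under 0.05). The share of all tested genes called was 5.16% lower, 2.83% higher and 7.98% in either direction, or 53.0%, 29.0% and 82.0% of the listed genes. These are 582 lower and 319 higher calls; the TPM scale gave 202 and 355, sums 126 and 386, TMM 87 and 385 and DESeq2 factors 86 and 387. The median log2 fold change of the 10 was -0.25, against -0.22 for all listed genes. IER3, an inhibitor of cell death, dropped to 3969 ± 183 normalised counts with extract from 4875 ± 61.6 (SD, n = 3 each), or -0.30 (SE 0.04, edgeR adjusted p = 0.00549). TRIB1, a pseudokinase, was at -0.34 (edgeR adjusted p = 0.00843). CCN1, a secreted matrix protein, was at -0.43 (edgeR adjusted p = 0.0123), KLF6 at -0.20 (edgeR adjusted p = 0.0194) and FOSL1, the AP-1 subunit Fra-1, at -0.28 (edgeR adjusted p = 0.0259). BTG1, an antiproliferative factor, rose from 1090 ± 27.9 to 1416 ± 109, or 0.38 (SE 0.06, edgeR adjusted p = 0.00812). RHOB at 0.14, PHLDA1 at -0.22, SRF at -0.20 and PTGS2 at -0.43 did not pass; PTGS2, cyclooxygenase-2, was at 308 ± 31.4 and 229 ± 33.2.

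The 5 lower genes were called by edgeR on none of the TPM scale, sums, TMM and DESeq2 factors. At an unadjusted p under 0.05, 7, 5, 3 and 3 of the 8 genes with a negative fold change passed on these scales. BTG1 passed on all 4. DESeq2 on the scale used called 8 lower and 2 higher. With all libraries on this scale, DESeq2 nearly repeats the authors' test by which the table was selected. Its counts, and those at an unadjusted p under 0.05, thus add no support, here or below. Without vehicle replicate 2 edgeR called 1 gene lower (IER3), without vehicle replicate 3 it called 2 and without extract replicate 2 it called 3. The classical members FOS, FOSB, JUN, JUNB, EGR1, ATF3 and NR4A1 were not in the table, which means a larger p-value or no test by the authors.

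Of the other dual-specificity phosphatases, 1 of 24 was in the table and was called lower, or 4.17%, against 5.16% of all tested genes. DUSP14, which acts on MAP kinases and other kinases, stood at 578 ± 12.1 with vehicle and 475 ± 29.2 with extract (normalised counts, SD, n = 3 each), or -0.28 (SE 0.07, edgeR adjusted p = 0.0365), a call lost on the 4 other scales and without any 1 of the 6 libraries. DUSP5 and DUSP6, the phosphatases most closely tied to ERK activity, were not in the table. Of the other Krüppel-like and Sp factors 5 of 25 were, 3 lower and 2 higher, all past the test, with a median of -0.20. KLF5, known from proliferating gut epithelium, fell from 10911 ± 59.7 to 8492 ± 148 at -0.36 (SE 0.04, edgeR adjusted p = 0.00138). Its call was kept on the 4 other scales, with limma-voom, with the replicate block and without any 1 of the 6 libraries. KLF16 was at -0.35 (edgeR adjusted p = 0.0138) and KLF6 at -0.20, while KLF12, a repressor, was at 0.36 (edgeR adjusted p = 0.00851) and KLF13 at 0.19 (edgeR adjusted p = 0.0232). Of the 3 lower calls, sums, TMM and DESeq2 factors each gave 1 and counts put on the TPM scale gave 2. Without vehicle replicate 2, edgeR made 1 lower and 0 higher calls, with 3 lower and 2 higher at an unadjusted p under 0.05 and 2 higher calls by DESeq2 on all libraries. Without vehicle replicate 3 or extract replicate 2 there were 1 lower and 1 higher call, and without extract replicate 1 there were 3 lower and 1 higher.

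The gastrointestinal markers in the table had the same sign as KLF4 and KLF5, as did 712 of the 1099 listed genes. The 5 of 20 in the table, VIL1, CDH17, TFF1, REG4 and TSPAN8, all had a negative log2 fold change, and all but TSPAN8 passed the test. That is 80.0% of the 5 called lower, against 53.0% of all listed genes. Of the 20, 20.0% were called lower, against 5.16% of all tested genes. Without vehicle replicate 2 only VIL1 of the 5 was called. REG4 was also not called with sums, TMM or DESeq2 factors, nor without any 1 library other than extract replicate 1. Their summed level was 530.0 to 561 TPM in the vehicle libraries and 438 to 447 in the extract libraries, and none of the 5 was at 0. VIL1 was at -0.42, CDH17 at -0.43, TFF1, a secreted gastric peptide, at -0.83 and REG4 at -0.78. The part of this in the values of KLF4 and KLF5 was not tested. The 1 lung alveolar marker in the table, LAMP3, was called higher at 0.35 (19.8 to 20.5 TPM with vehicle, 23.4 to 29.5 with extract), a call lost when extract replicate 2, or either of vehicle replicates 2 and 3, was left out. The 1 fibroblast marker, COL1A1, was called lower at -0.33 (12.8 to 15.8 TPM with vehicle, 10.0 to 14.8 with extract), and its groups overlapped in TPM. That call was lost on the 4 other scales and when replicate 2 or 3 of either group was left out.

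Genes of the MYC network were described from 2 lists. MAX, the obligate partner of MYC, was the only other member of the MYC and MAX network in the table (1 of 12) and had 2184 ± 24.0 normalised counts with vehicle and 1907 ± 61.0 with extract (SD, n = 3 each), or -0.20 (SE 0.04, edgeR adjusted p = 0.0246). That call was lost on the 4 other scales and when extract replicate 2, or either of vehicle replicates 2 and 3, was left out. Lower calls were 8.33% of the 12, against 5.16% of all tested genes. Of 62 known MYC targets 27 were in the table: 22 fell, 0 rose and 5 did not pass edgeR's test, with 25 lower and 2 higher at an unadjusted p under 0.05. With DESeq2 24 fell and 1 rose. The table holds no deposited p-value above 0.00535, so these unadjusted and DESeq2 counts were nearly fixed by its selection. The median was -0.31 against -0.22 for all listed genes, and 35.5% of the list was called lower, against 5.16% of all tested genes. The list was chosen with these results known and is rich in nucleolar proteins.

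GNL3, the nucleolar GTPase nucleostemin, fell from 3691 ± 57.3 to 2719 ± 77.5 normalised counts (SD, n = 3 each), or -0.44 (SE 0.04, edgeR adjusted p = 0.00119). NOP16 was at -0.52 (edgeR adjusted p = 0.00283), WDR43 at -0.31 (edgeR adjusted p = 0.00313), NOLC1 at -0.30 (edgeR adjusted p = 0.00477) and the hexokinase HK2 at -0.33 (edgeR adjusted p = 0.00657). HSPE1, a mitochondrial co-chaperonin, was at -0.40 (edgeR adjusted p = 0.00379). ODC1, the rate-limiting enzyme of polyamine synthesis and a direct MYC target, was at 0.17 and MAP3K6 at 0.53, and neither passed; both passed on the 4 other scales. The 22 lower calls were 13 on the TPM scale, 9 with sums and 3 with TMM or DESeq2 factors; GNL3, NOP16 and HSPE1 passed on each of these. Leaving out vehicle replicate 2 left 6, leaving out vehicle replicate 3 left 9 and leaving out extract replicate 2 left 8.

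Upstream of these genes, the list of cascade members had few genes in the table. Of 57 other kinases, small GTPases and adaptors of the cascades 1 was, MAP3K6, which had 119 ± 13.6 normalised counts with vehicle and 171 ± 25.0 with extract (SD, n = 3 each), or 0.53 (SE 0.14), and did not pass (edgeR adjusted p = 0.0548). MAP2K3, the other main activator of p38, and the p38 genes MAPK11 to MAPK14 were not in the table. Of 28 growth factor ligands and receptors 2 were, TGFA, a ligand of the EGF receptor, at -0.29 (SE 0.06, edgeR adjusted p = 0.0191) and VEGFA at 0.13, which did not pass. On the 4 other scales VEGFA was called higher, at 0.20 to 0.30, and it passed with DESeq2 too. TGFA was not called on any other scale, nor without vehicle replicate 2 or vehicle replicate 3. Of the 28, 3.57% were called lower, against 5.16% of all tested genes.

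Of 24 other feedback regulators and ETS-linked targets of ERK, 8 were in the table, 5 lower and 1 higher past the test and 2 (PHLDA1 and ERRFI1) not past it, with a median of -0.27. All listed genes had a median of -0.22. Lower calls were 62.5% of the 8, against 53.0% of all listed genes, and 20.8% of the 24, against 5.16% of all tested genes. CCND1, cyclin D1, fell from 21279 ± 925 to 16223 ± 1080 normalised counts (SD, n = 3 each), at -0.39 (SE 0.06, edgeR adjusted p = 0.00518). Its call too was kept in all 16 other settings. The transcription factor ETS1 was at -0.42 (edgeR adjusted p = 0.00739) and SPRY4, an inhibitor of receptor signalling, at -0.25 (edgeR adjusted p = 0.0251). The ephrin receptor EPHA4 was at 0.22 (edgeR adjusted p = 0.0205). IER3 and FOSL1, given above, belong here too. The 5 lower calls were 2 on the TPM scale and with sums, and 1 with TMM or DESeq2 factors. There were 3 lower and 0 higher calls when extract replicate 2, or either of vehicle replicates 2 and 3, was left out (1 higher at an unadjusted p under 0.05 by edgeR, and 1 higher by DESeq2 on all libraries).

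**Figure D5:**
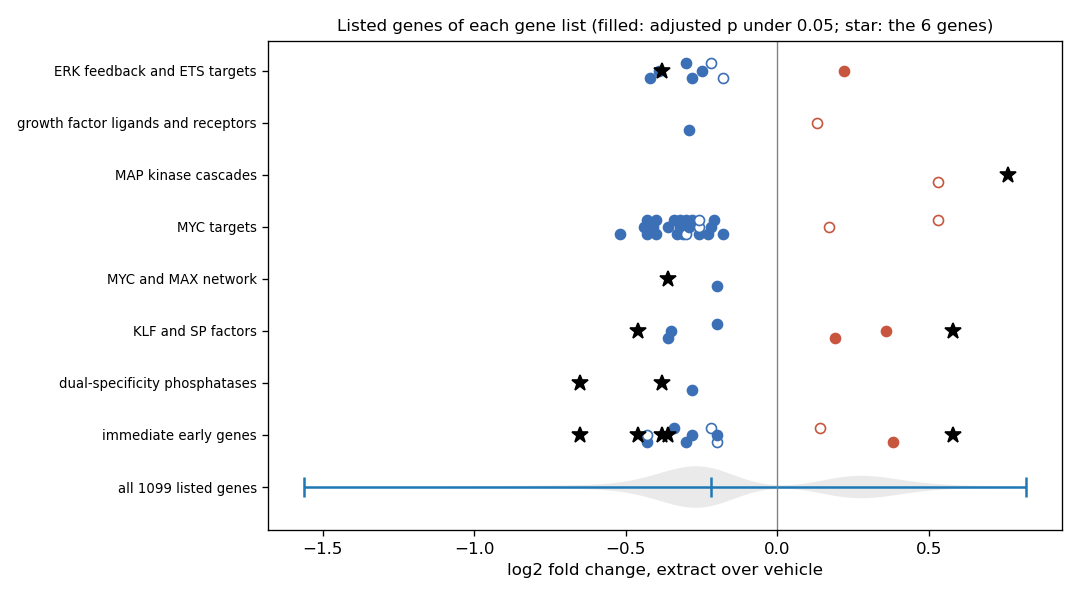
Log2 fold changes of extract over vehicle (horizontal axis) for the genes of 8 lists that are in the table; filled points passed edgeR's test, open points did not, stars are the 6 genes and the grey shape, with lines at its ends and median, is the distribution of all 1099 listed genes. Most points lie below 0, as do 712 of the 1099 listed genes, while KLF2 (0.58) and MAP2K6 (0.76) lie on the right.

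The table's own pathway annotation (KEGG, given for 483 of the 1099 genes) placed 18 listed genes in MAPK signaling, among them MAP2K6, MYC, DUSP4 and DUSP1. Of the other 14, 3 were called higher (21.4%), 7 lower (50%) and 4 neither, near the 29.0% and 53.0% of all listed genes. On each of the 4 other scales edgeR called 5 higher and 0 lower, while at an unadjusted p under 0.05 DESeq2 factors gave 2 lower, TMM 5, sums 6 and the TPM scale 8. DESeq2 on the scale used, which nearly repeats the authors' selecting test, called 5 higher and 9 lower. Without vehicle replicate 2 or vehicle replicate 3 edgeR called 1 higher and 0 lower (8 lower at an unadjusted p under 0.05 in each case), and without extract replicate 2 it called 1 each way. Among the 14 are genes outside the lists above: the Ras activator SOS2 (0.29), the Ras inhibitor RASA1 (0.26), the small GTPase RAC3 (-0.32) and the growth factors CSF1 (0.54) and IGF1 (-0.77). IGF1 had 114 ± 11.9 normalised counts with vehicle and 66.9 ± 17.5 with extract (SD, n = 3 each), while its mean TPM was 3.87 and 3.88. The annotation placed 18 in fluid shear stress and atherosclerosis, among them MAP2K6, KLF2 and DUSP1; of the other 15, 3 were called higher (20.0%) and 9 lower (60.0%). On the other scales 4 were called higher and 1 to 4 lower, and DESeq2 on the scale used called 4 higher and 11 lower. Without vehicle replicate 2 there were 1 higher and 0 lower (10 lower at an unadjusted p under 0.05). Lower calls were 3 without extract replicate 2, 4 without vehicle replicate 3 and 5 without extract replicate 3. KLF4 is in neither.

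The genes most like each of the 6 were found by the root mean square difference of centred log2 values over the 6 libraries, so they share its libraries and its difference between groups. For DUSP1 they were the keratin KRT80 (0.041), the kinase GRK5 (0.057) and ATP8B3 (0.065). For DUSP4 they were CCND1 (0.016), the transporter SLC7A6 (0.017) and MB21D2 (0.025). KLF4 was nearest to the kinase PIM1 (0.027), the complement regulator CD55 (0.036) and ZNF232 (0.041). MYC was nearest to the nucleoside diphosphate kinase NME1 (0.024), NXT1 (0.033) and the ribosome factor EIF6 (0.038). KLF2 had no gene as near, with INSIG1, a brake on cholesterol synthesis, at 0.083, SLCO2A1 at 0.089 and ITPKB at 0.11. MAP2K6 was nearest to the interferon-induced IFI44L (0.089), AMACR (0.12) and the interferon-induced CMPK2 (0.14). The nearest genes of the 4 lower members thus lay at 0.016 to 0.041 and those of the 2 higher ones at 0.083 and 0.089. KLF2 and MAP2K6 also had the fewest counts of the 6 and the largest pooled SD within groups on the log2 scale, 0.17 and 0.25. Among listed genes 387 had a positive log2 fold change and 712 a negative one. The part of either in these distances was not tested.

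Gene structure separated MAP2K6 from the rest. In GENCODE release 29, DUSP1 spans 3106 bases, KLF2 3058, KLF4 5631, MYC 6001 and DUSP4 17605, with at most 3 to 5 exons in a transcript. MAP2K6 spans 139164 bases and has up to 12 exons, while the median listed gene spans 28149 bases with 9 exons, and 25.0% of listed genes span under 10 kb. AU-rich elements, the ATTTA repeats of 3′ untranslated regions that mark short-lived messengers, were counted in the longest such region of each gene. ATTTA occurred 4 times in DUSP1, 6 times in DUSP4, 3 times in KLF2, 2 times in KLF4, 4 times in MYC and 32 times in the 12108 bases of MAP2K6. Scaled to region length, in matches per kb, that is 8.40 in MYC, 5.95 in DUSP1, 3.56 in KLF2, 2.64 in MAP2K6, 2.22 in KLF4 and 1.51 in DUSP4, against a median of 1.72 over listed genes. The longer form TTATTTATT was found 2 times in DUSP1 and 1 time in DUSP4 and not in the other 4, and 9.66% of listed genes hold it. The genes lower with extract held both the highest of these values, MYC and DUSP1, and the lowest, KLF4 and DUSP4. KLF2 and MAP2K6, which were higher, lay between them, MAP2K6 by its longest annotated region. Its estimated count per unit of TPM, -0.49 to -0.25, was near that of DUSP1, -0.35 to -0.32. The deposited lengths of these genes are 13405 bases for MAP2K6 and 2013 for DUSP1. Whether the MAP2K6 RNA counted here held the 12108-base region was not tested. A link to messenger decay was not tested.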

How the data were processed

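RNA of 6 libraries (3 vehicle, 3 F/B extract, groups from the sample titles) was analysed from 1 table. Per the file headers, the authors deposited an estimated count for each gene and library (31.8% to 35.9% not whole; rounded here). The authors also deposited TPM values, of which the listed genes hold 30.1% to 33.1% of each library's total. Their own comparison was deposited as a linear ratio, its log2, a p-value and the adjusted p-value. The comparison was made with DESeq2, per the file's own name, on GRCh38.p13 (build named in the submitters' processing notes). Aligner and counter were not given in the sources used here. Adjustment in the table is Benjamini-Hochberg over 11289 genes (largest relative error 0.00445), of which 1099 are listed. Deposited fold changes are vehicle over extract and were turned round.

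Size factors were found by fitting DESeq2 (1.42.0) fold changes to the deposited ones (median absolute log2 difference 6.64e-05, largest 0.00136), since factors estimated on the listed genes would centre on changed genes. The main test was the quasi-likelihood test of edgeR 4.0.16 (R 4.3.3), adjusted over 11289 genes, threshold 0.05, with the spread estimated from listed genes alone, which may make p-values too small. The edgeR test was also run on simulated counts, with the library scale known and adjustment over the listed genes alone. That run thus did not check the scale used here or the adjustment over 11289 genes. The 6 genes, the gene lists and the motifs were chosen with earlier results of these data known. Named genes are the 6, up to 6 per list by p-value and the 3 most alike per gene (pseudocount 1); RHOB, PHLDA1, SRF, PTGS2, ERRFI1, ODC1, CDH17, TFF1, REG4, TSPAN8, LAMP3, COL1A1, SOS2, RASA1, RAC3, CSF1 and IGF1 were named after their values were seen. Alternatives were 4 scales, DESeq2, limma-voom (limma 3.58.1), adjustment over listed genes, 2 filters, leaving out each library, and a block on the replicate number. Gene positions and untranslated regions are from GENCODE release 29 (GRCh38), with 1085 listed genes matched by ID, and promoters from RefSeq.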

Additional observations from a re-analysis of the deposited data

How the results depend on the processing

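The 6 genes kept their sign in all settings. Leaving out 1 library gave DUSP1 -0.71 to -0.61, DUSP4 -0.43 to -0.33, KLF4 -0.48 to -0.41, MYC -0.46 to -0.26, KLF2 0.49 to 0.65 and MAP2K6 0.57 to 0.90 on the log2 scale. Values moved by more than the spread between replicates with sums over the listed genes for DUSP1 (-0.51), DUSP4 (-0.24) and KLF4 (-0.32). With TMM this held for DUSP1 (-0.49), DUSP4 (-0.22), KLF4 (-0.30) and MYC (-0.21). With DESeq2 factors it held for DUSP1 (-0.47), DUSP4 (-0.20), KLF4 (-0.28), MYC (-0.19) and KLF2 (0.76), and on the TPM scale for KLF4 (-0.38).

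Over all listed genes 319 were called higher and 582 lower. Sums gave 386 higher and 126 lower, TMM 385 and 87, DESeq2 factors 387 and 86, and the TPM scale 355 and 202. Leaving out 1 library gave 50 to 287 higher and 128 to 569 lower, the fewest without vehicle replicate 2.

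For the other immediate early genes lower calls went from 5 to 0 on each of the 4 other scales and to 8 with DESeq2 or with adjustment over listed genes. Leaving out 1 library gave 1 to 6. Higher calls went from 1 to 2 on the 4 scales, with DESeq2 and with adjustment over listed genes. For the Krüppel-like and Sp factors 3 lower calls became 1 with sums, TMM or DESeq2 factors; without 1 library they were 1 to 3, and higher calls 0 to 2. For MYC targets 22 lower calls became 3 by TMM or DESeq2 factors, 9 by sums and 13 by TPM, and 6 to 24 without 1 library. Higher calls there went from 0 to 1 with DESeq2, to 2 on the 4 scales and with adjustment over listed genes, and were 0 to 1 without 1 library. For the ERK feedback list 5 lower calls became 1 by TMM or DESeq2 factors and 2 by sums or TPM, and 3 to 4 without 1 library, with 0 to 1 higher. The cause was not tested.

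Deviations of same-numbered libraries from their group means correlated at -0.23, -0.01 and -0.03 across genes. Those of differently numbered libraries correlated at -0.21 to 0.24. With deviations taken from means of 3 libraries, these values cannot settle whether same-numbered libraries shared a batch. With the replicate number as a block 94 genes were called higher and 237 lower. Lower calls were 3 for the other immediate early genes, 1 for the Krüppel-like and Sp factors, 12 for MYC targets and 3 for the ERK feedback list, and higher calls were 1 for the Krüppel-like and Sp factors and 0 for the ERK feedback list. The 2 filters removed 0 genes. Of the 18 nearest genes, 18 and 17 were shared with pseudocounts of 0.5 and 5.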
